A study of Caenorhabditis elegans with 48 samples.

Results

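Both arms of mir-788, miR-788-3p and miR-788-5p, together with miR-246-3p are 3 mature microRNA (miRNA) strands out of the 437 strands listed in the count table of this small RNA time course of Caenorhabditis elegans larvae. They were chosen by name for the way their levels went up and down over the sampling hours, for the opposite timing of miR-788-3p and miR-246-3p, and for the ratio of both strands of mir-788. Their time courses, peak hours and strand ratio are therefore given as a description without a test, and only differences between the genotypes were tested. The peak hours of both genotypes took part in the choice, so the test of a rhythm difference is not independent of it. All 3 passed the minimum mean count of 10 and belong to the 246 strands tested.

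Per the study, synchronized larvae of the first larval stage (L1) of 2 strains were put in liquid culture with food. They were sampled hourly from 0 to 23 h of that culture, giving 24 libraries of each strain. The lin-28(0) strain, HW2706, carries the deletion allele lin-28(xe192) on chromosome I, a single CRISPR-made allele that removes the RNA-binding protein LIN-28, which blocks let-7 maturation. miRNA counts hold no lin-28 mRNA, so the deletion itself could not be checked in them. The wild-type (WT) strain is HW1993. Both carry the transgene xeSi312 on chromosome IV, in which the ubiquitous eft-3 promoter drives a luciferase and GFP reporter, and both were grown untreated in liquid culture with OP50 bacteria at 25°C and 1000 animals per mL. Each strain was 1 culture, so that neighbouring hours are not independent cultures and every p-value measures the spread between hours of these 2 cultures.

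A miRNA precursor is cut into a duplex whose arms are named 5p and 3p. One arm, the guide, is loaded into an Argonaute protein and directs it to target mRNAs, while the other, the passenger, is usually short-lived. Larval growth in C. elegans is divided by molts, and many transcripts oscillate once per larval stage. The guide strand of mir-788 has been tied to EBAX-1, a ubiquitin ligase receptor that acts in miRNA decay. The study uses the word guide for the strand with the higher mean level over its time course. The arm of mir-788 meant by it is miR-788-5p. In the libraries used here, miR-788-3p had the higher mean level in both genotypes. mir-246 is known for its link to adult life span, where its loss shortens life. In the WBcel235 annotation, mir-788 lies on chromosome X between the protein-coding genes nhr-14 and T01B10.5, and mir-246 lies on chromosome IV between fic-1 and Y69E1A.1. Neither overlaps another annotated gene.

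Levels are given in CPM, the counts of a strand per 1000000 counts of all listed strands in the same library, so they are relative to the other miRNAs and are no measure of the amount in a larva. In whole larvae, fewer cells of a type and less RNA per cell cannot be told apart. Library totals ran from 2996370 to 15317364 counts in lin-28(0) and from 2315421 to 20757531 counts in WT, so that 1 count was worth at most 0.432 CPM. The lin-28(0) libraries of 1, 2 and 3 h differed from their neighbours: miR-228-5p, named here after its values were seen, held 59883 to 77264.5 CPM in them, against 23037 to 28536 CPM in the lin-28(0) libraries of 0 and 4 to 7 h. The 95% intervals given for single libraries are exact Poisson intervals and cover counting error only.

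miR-788-3p was the most abundant of the 3 strands, with low levels in the first hours and a pair of waves after them. In lin-28(0), the lowest library was that of 3 h (13.5 CPM) and the highest that of 21 h (748 CPM), with a median of 126 CPM. Without the early libraries that differ from their neighbours, the lowest was that of 5 h (30.2 CPM), and the span was 24.8-fold in place of 55.3-fold. In WT, the lowest was that of 7 h (19.2 CPM) and the highest that of 18 h (945 CPM), with a median of 106.5 CPM. In both genotypes the first 8 hours were low, with means of 28.6 ± 9.49 CPM in lin-28(0) and 29.2 ± 6.86 CPM in WT (SD over 8 hourly libraries).

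From 8 h on, miR-788-3p went through a pair of waves in each genotype. In lin-28(0), the libraries of 8, 9 and 10 h held 51.4, 129 and 310.5 CPM, the top at 11 h was 342 CPM (95% interval 328 to 356 CPM), and by 15 h only 115 CPM were left. The second wave set out after 17 h, which had 123 CPM, and had a broad top of 735, 748 and 719 CPM over 20, 21 and 22 h. In WT, the first wave was sharper. The libraries of 8, 9 and 10 h held 58.2, 303 and 590.2 CPM (95% interval at 10 h, 575 to 606 CPM), whereas 11 and 13 h had 209.6 and 77.1 CPM. The second WT wave gave 450.5 CPM in the library of 17 h, a top of 945 CPM 1 hour later (95% interval 923 to 967 CPM), and then 709 CPM, with 234 CPM left by 22 h.

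The observed tops of miR-788-3p were 10 h apart in lin-28(0) and 8 h apart in WT. The second was 2.19-fold the first in lin-28(0) and 1.60-fold the first in WT. Between the first top and the low point after it the level differed 2.96-fold in lin-28(0) and 7.65-fold in WT, so the trough at 15 h in lin-28(0) was shallower than the WT trough at 13 h. The largest step between neighbouring hours was from 8 to 9 h in both genotypes, 2.52-fold in lin-28(0) and 5.20-fold in WT.

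**Figure D1:**
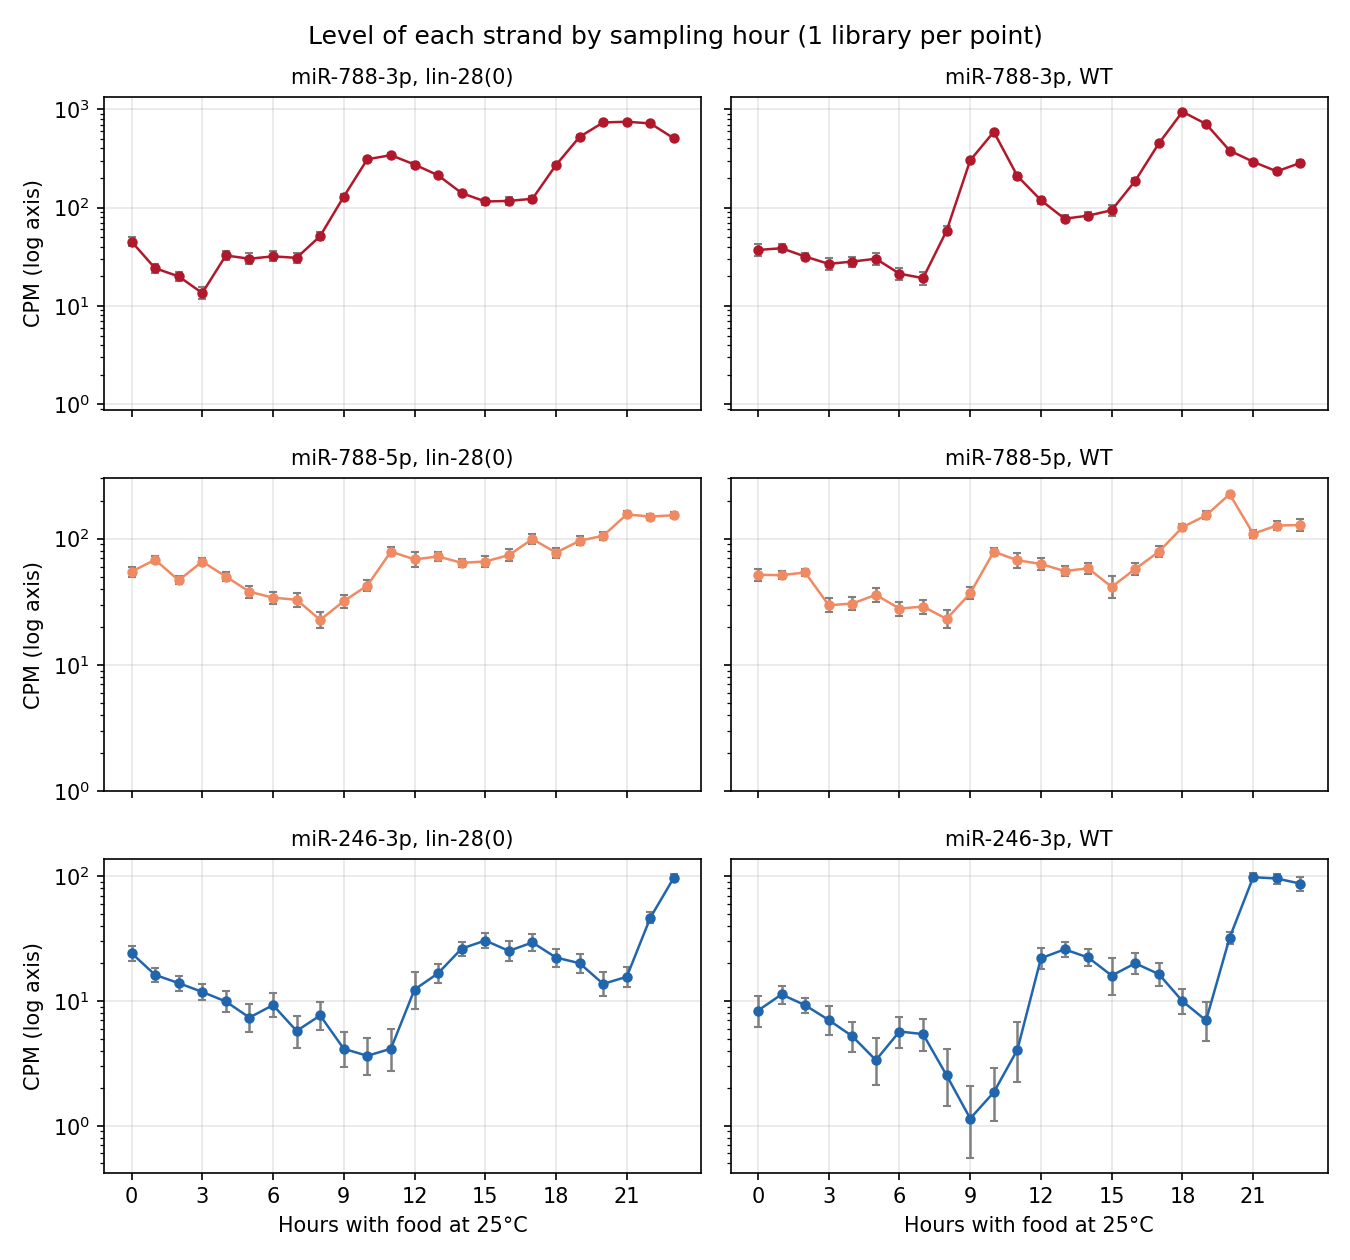
Level of each strand in CPM (log axis) by sampling hour, with lin-28(0) on the left and WT on the right. Each point is 1 library and bars are exact 95% Poisson intervals. miR-788-3p tops out at 11 and 21 h in lin-28(0) and at 10 and 18 h in WT, while miR-246-3p is near its lowest when miR-788-3p is at its first top.

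miR-788-5p, the other arm of the same precursor, had smaller waves. Its highest hours were those of miR-788-3p in lin-28(0), 11 and 21 h, and in the first WT wave, 10 h, while in the second WT wave its top at 20 h came 2 h after that of miR-788-3p. Its lin-28(0) libraries spanned 22.7 CPM (8 h) to 155 CPM (21 h), with a median of 66.9 CPM. Its WT libraries spanned 23.1 CPM (8 h) to 225 CPM (20 h), with a median of 56.5 CPM. The low point thus fell at the same hour in both genotypes, with 95% intervals of 19.5 to 26.3 CPM in lin-28(0) and 19.5 to 27.2 CPM in WT.

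The first wave of miR-788-5p reached almost the same height in both cultures, 78.9 CPM at 11 h in lin-28(0) and 78.7 CPM at 10 h in WT. After it the level did not come down far. From 12 to 15 h the lin-28(0) libraries stayed between 64.3 and 72.2 CPM, and 99.2 CPM were counted by 17 h. The WT libraries of 13 and 15 h had 55.4 and 41.5 CPM, the second of them being the shallowest WT library, with 96 counts of this strand (95% interval 33.6 to 50.6 CPM). In the last 3 hours lin-28(0) held 155, 150 and 153 CPM, against 109, 127 and 128 CPM in WT, where the single library of 20 h stood out with 225 CPM.

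Averaged over all hours, miR-788-3p exceeded miR-788-5p 3.18-fold in lin-28(0) and 3.03-fold in WT, but which strand was ahead depended on the hour. From 0 to 7 h the 5p strand was the more abundant in 8 of 8 libraries of each genotype. At 6 and 7 h in lin-28(0) and at 3, 4 and 5 h in WT the interval of the share included equal counts. From 8 h on the 3p strand was ahead in 16 of 16 libraries of each genotype. Both genotypes passed from one state to the other between 7 and 8 h. The share of 3p among the counts of both strands was 48.5% at 7 h and 69.4% at 8 h in lin-28(0) (exact binomial 95% intervals 44.1% to 52.9% and 65.4% to 73.1%), and 39.8% and 71.6% in WT (35.1% to 44.7% and 67.5% to 75.5%).

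Within the later hours the 3p to 5p ratio moved in waves with tops close to those of miR-788-3p. The lin-28(0) ratio was 7.31 at 10 h, 1.24 at 17 h and 6.98 at 20 h. The WT ratio was 8.21 at 9 h, 1.39 at 13 h, 7.67 at 18 h and 1.69 at 20 h. That last value is from the single WT library with 225 CPM of miR-788-5p, and the ratio was 2.68 at 21 h. In each genotype the first top of the ratio came 1 hour before the first top of miR-788-3p itself. The second came 1 hour before that of miR-788-3p in lin-28(0) and in the same hour in WT.

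The lowest ratios came from the 3 early lin-28(0) libraries that differ from their neighbours. There the 3p to 5p ratio was 0.356 at 1 h, 0.427 at 2 h and 0.206 at 3 h, against 0.753, 0.590 and 0.903 in WT. In the other 5 early lin-28(0) libraries it lay between 0.651 and 0.940, which overlaps the WT range of 0.590 to 0.925 over 0 to 7 h. Over all 24 hours the mean log2 ratio (1 CPM added to both strands) was 0.90 ± 1.42 in lin-28(0) and 0.93 ± 1.18 in WT (SD over hours), and the hourly difference, lin-28(0) minus WT, was -0.03 ± 1.03 with 12 of 24 hours above 0.

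Among 59 precursors with both strands at a mean of 10 CPM or more, the log2 ratio of mir-788 spanned 5.04 over the hours in lin-28(0), rank 3 from the widest, and 3.75 in WT, rank 13. The medians of all 59 were 2.65 in lin-28(0) and 2.30 in WT. With those of 1, 2 and 3 h left out, a choice made after the ratios were seen, the span in lin-28(0) was 3.45, rank 8, beside a median of 2.05.

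**Figure D2:**
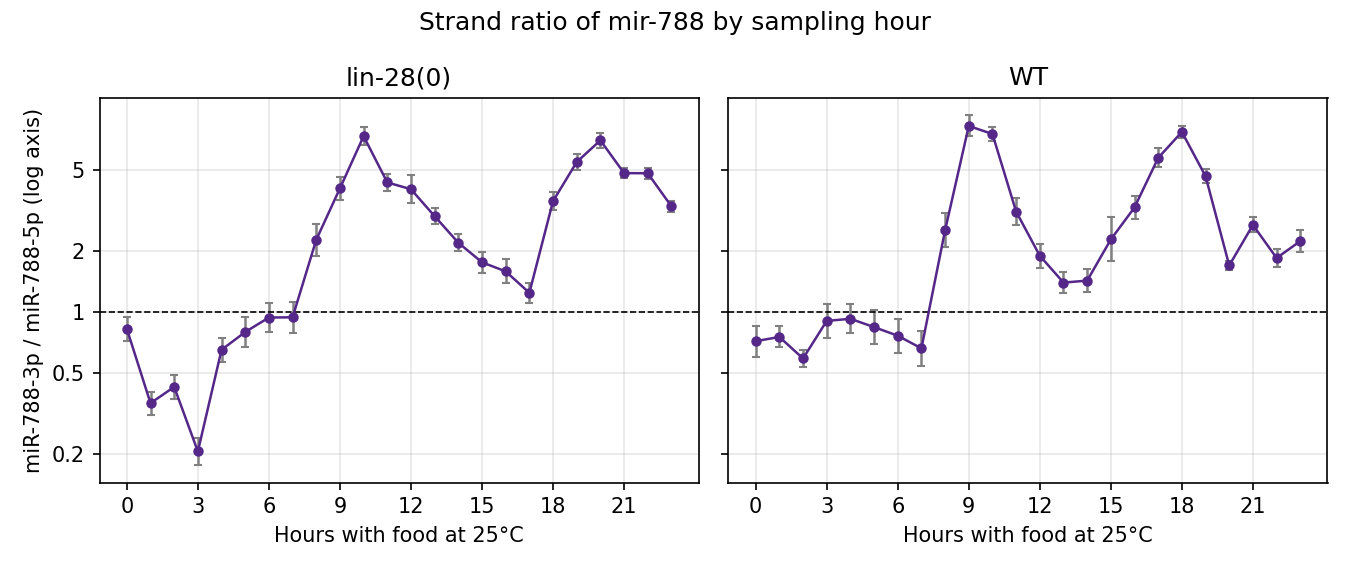
Ratio of miR-788-3p to miR-788-5p counts (log axis) by sampling hour, lin-28(0) on the left and WT on the right, with exact binomial 95% intervals and a dashed line at equal counts. The ratio is below 1 in all 8 libraries of 0 to 7 h and above 1 in all 16 later libraries of each genotype.

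miR-246-3p, the more abundant arm of mir-246, had the lowest level of the 3 strands and a different timing. Its lin-28(0) libraries spanned 3.63 CPM (10 h) to 97.7 CPM (23 h), with a median of 14.8 CPM. Its WT libraries spanned 1.14 CPM (9 h) to 98.3 CPM (21 h), with a median of 9.61 CPM. The lin-28(0) low point rests on 35 counts (95% interval 2.53 to 5.05 CPM) and the WT low point on 10 counts (0.548 to 2.10 CPM), and these intervals do not overlap.

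At 0, 3 and 7 h miR-246-3p had 24.2, 11.8 and 5.75 CPM in lin-28(0), against 8.37, 7.04 and 5.42 CPM in WT. The levels were nearly equal at 7 h, but the log2 difference was 0.81 at 4 h, 0.94 at 5 h and 1.29 at 8 h, with lin-28(0) the higher one. The first wave of miR-246-3p was a broad hump. In lin-28(0) 12, 15 and 17 h had 12.3, 30.5 and 29.5 CPM. In WT a 5.42-fold step lay between 11 and 12 h, with 4.06 and 22.0 CPM, the top was 25.9 CPM (13 h), and 17 h still had 16.4 CPM.

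A dip and a steep second climb followed. In lin-28(0) the dip was at 20 h, with 13.7 CPM, and 22 and 23 h had 46.5 and 97.7 CPM. In WT the dip was at 19 h, with 6.98 CPM, 20 and 21 h had 32.2 and 98.3 CPM, and the last 2 hours stayed high with 96.0 and 87.3 CPM. Whether lin-28(0) had reached its own top by 23 h cannot be told from these hours, since that library is the last and the highest.

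miR-246-5p, the opposite arm, was barely counted. It had 53 counts over the 24 lin-28(0) libraries and 47 over the 24 WT libraries, with none in 17 lin-28(0) libraries and 16 WT libraries. Those counts fell in few hours. In lin-28(0), 19 came in 12 to 15 h and 34 in 21 to 23 h, and in WT 40 came in 19 to 22 h. miR-246-3p was rising or high in most of these hours. The WT library of 19 h, its dip, still held 3 counts of miR-246-5p, and that of 23 h, with 87.3 CPM of miR-246-3p, held none. The highest levels of miR-246-5p were 2.77 CPM at 23 h in lin-28(0) (95% interval 1.76 to 4.16 CPM) and 2.46 CPM at 21 h in WT (1.43 to 3.94 CPM). In a library without a count, 3 counts would have been at most 0.636 CPM in lin-28(0) and 1.30 CPM in WT.

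The timing of miR-788-3p and miR-246-3p was close to opposite in both genotypes. After a straight line over 5 to 23 h had been taken from log2(CPM + 1), the strands stood on opposite sides of their trends in 14 of 19 hours in lin-28(0) and in 18 of 19 hours in WT. Pearson's r between them was -0.75 in lin-28(0) and -0.83 in WT (n = 19 hours, which share libraries, total counts and culture). Spearman's rho was -0.75 in lin-28(0) and -0.71 in WT. Without removal of the trend and over all 24 hours, r was 0.30 in lin-28(0) and 0.25 in WT, and the mean level of both strands was highest in the window of 16 to 23 h in each genotype.

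The arms of mir-788 were only loosely tied once the trend was out. Their r was 0.27 in lin-28(0) and 0.55 in WT, and that of miR-788-5p with miR-246-3p was -0.04 in lin-28(0) and -0.38 in WT. The r of miR-788-3p with miR-246-3p, a strand of another chromosome, was larger in size. The opposite timing of that pair took part in the choice of the strands, so no conclusion is drawn from this comparison.

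**Figure D3:**
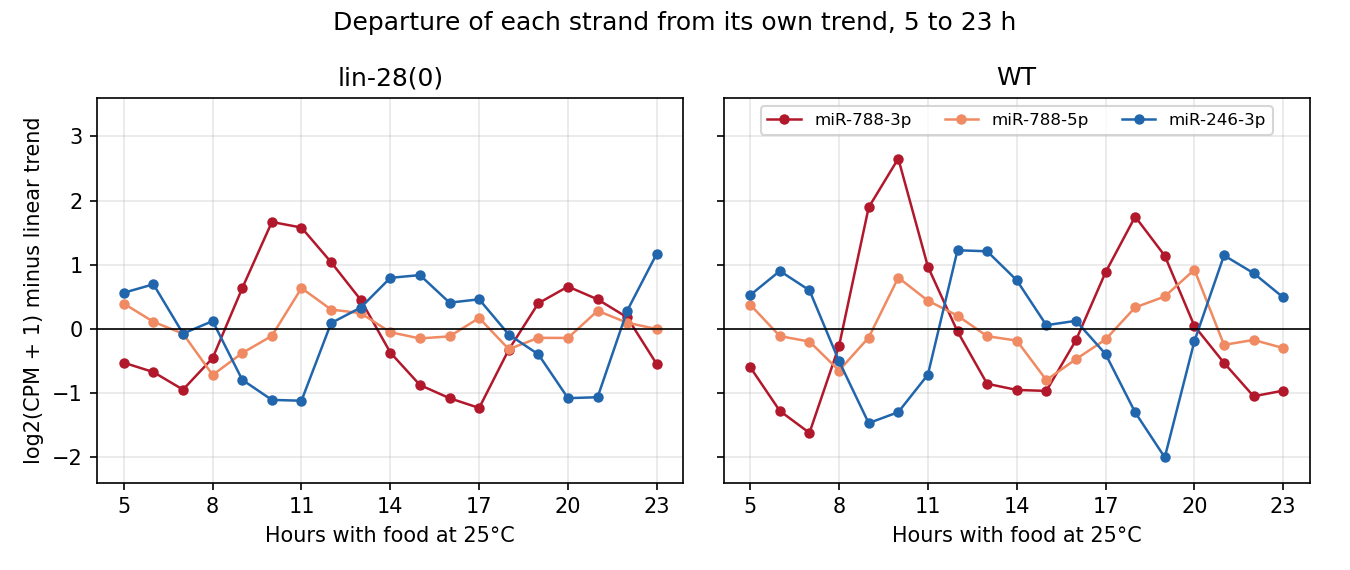
Departure of log2(CPM + 1) from the linear trend of each strand over 5 to 23 h, lin-28(0) on the left and WT on the right, 1 point per library. miR-788-3p is above its trend while miR-246-3p is below its own at 9 to 11 h and at 19 to 21 h in lin-28(0), and at 9 to 11 h and at 17 to 20 h in WT.

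A cosine of 9 h with a linear trend summarised each time course over 5 to 23 h. For miR-788-3p the amplitude was 1.22 ± 0.11 (log2, SE) in lin-28(0), a 5.41-fold range between top and trough, and 1.42 ± 0.21 in WT, a 7.14-fold range. For miR-246-3p it was 0.91 ± 0.12 in lin-28(0) and 1.16 ± 0.18 in WT. For miR-788-5p it was 0.30 ± 0.09 in lin-28(0) and 0.50 ± 0.11 in WT. Ordered by amplitude among the 180 strands that averaged 10 CPM or more, miR-788-3p had rank 3 in lin-28(0) and rank 6 in WT, miR-246-3p rank 11 in lin-28(0) and rank 13 in WT, and miR-788-5p rank 58 in lin-28(0) and rank 44 in WT.

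The same fit gave the timing of the peaks within a cycle. The fit placed the first peak of miR-788-3p at 11.2 ± 0.117 h in lin-28(0) and 9.73 ± 0.235 h in WT. The next peak of miR-788-5p came 1.35 h later in lin-28(0) and 1.15 h later in WT, although the observed tops of both arms shared the hour in 3 of the 4 waves. The next peak of miR-246-3p, at 15.0 ± 0.197 h in lin-28(0) and 13.7 ± 0.239 h in WT, came 3.79 h after miR-788-3p in lin-28(0) and 3.93 h after it in WT, which is close to the middle of a 9 h cycle. Since the fit is periodic, it also places a peak of miR-246-3p before that of miR-788-3p, at 5.96 h in lin-28(0), so the order is that of the peaks which follow miR-788-3p. It was the same in both genotypes.

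The wave explained 89.6% of the variance of miR-788-3p left after the trend in lin-28(0) and 75.5% in WT. It explained 78.9% in lin-28(0) and 74.6% in WT for miR-246-3p, but only 45.9% in lin-28(0) and 56.4% in WT for miR-788-5p. When the period was left free on a grid from 6 to 14 h, the best fit was 9.5 h in lin-28(0) and 8 h in WT for miR-788-3p, 9.6 h in lin-28(0) and 8.4 h in WT for miR-246-3p, and 8.8 h in lin-28(0) and 7.9 h in WT for miR-788-5p. The period was the longer one in lin-28(0) for each of the 3 strands, and 19 hourly libraries hold only about 2 cycles.

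**Figure D4:**
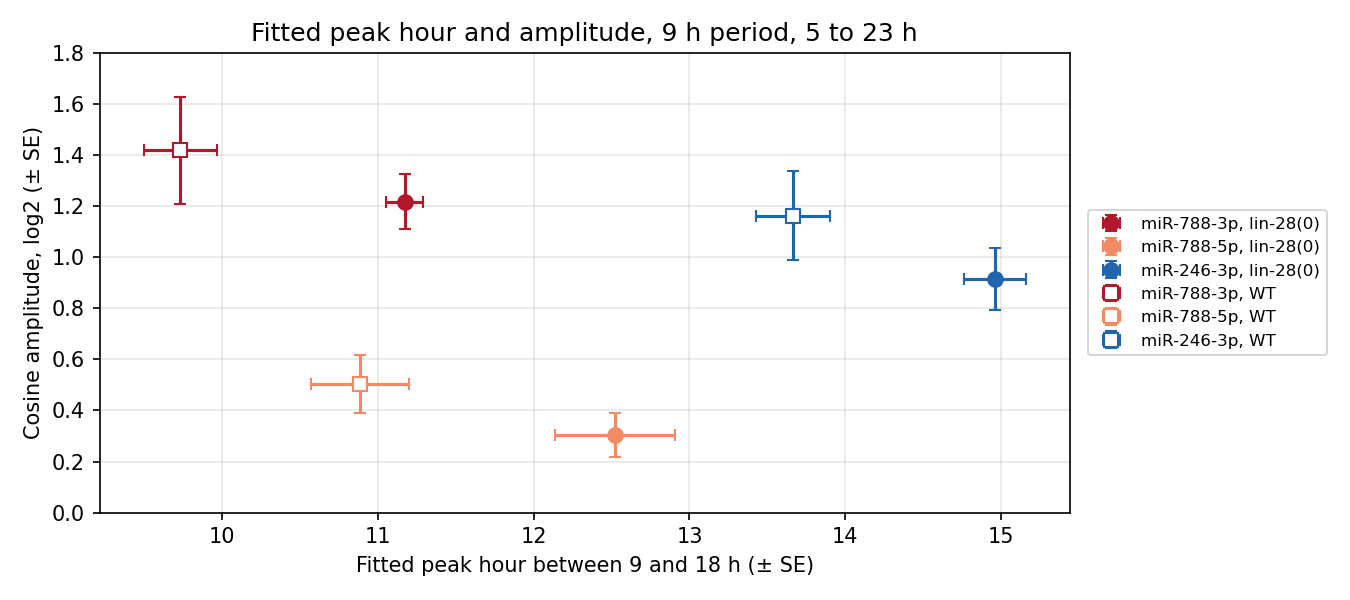
Fitted peak hour and cosine amplitude of each strand with a 9 h period over 5 to 23 h, filled circles for lin-28(0) and open squares for WT, bars ± SE. Counted from the miR-788-3p peak at 11.2 h in lin-28(0) and 9.73 h in WT, miR-788-5p comes next and miR-246-3p after it, and each lin-28(0) peak lies to the right of its WT peak.

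The comparison of the genotypes asks what the absence of LIN-28 does to these strands at equal sampling hours. On average over the 24 hours, none of the 3 strands differed past the threshold (adjusted p of 0.01, edgeR quasi-likelihood test over the 246 strands, of which 22.8% passed). The fitted log2 difference, lin-28(0) minus WT, was -0.22 ± 0.23 (SE) for miR-788-3p (adjusted p = 0.476 by edgeR), 0.05 ± 0.10 for miR-788-5p (adjusted p = 0.751) and 0.16 ± 0.20 for miR-246-3p (adjusted p = 0.563). At an unadjusted p under 0.05 the count was also 0 of 3, beside 106 of all 246 strands. DESeq2 and limma with the same model called 0 of 3.

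The mean levels were near each other as well. miR-788-3p averaged 231 ± 243 CPM in lin-28(0) and 219 ± 245 CPM in WT, miR-788-5p 72.8 ± 37.7 CPM in lin-28(0) and 72.3 ± 49.0 CPM in WT, and miR-246-3p 19.8 ± 19.5 CPM in lin-28(0) and 21.6 ± 29.1 CPM in WT (SD over 24 hours). The observed hourly log2 differences scattered widely around 0. They averaged 0.06 ± 1.00 for miR-788-3p, with 14 of 24 hours higher in lin-28(0), 0.10 ± 0.51 for miR-788-5p, with 17 of 24, and 0.32 ± 0.96 for miR-246-3p, with 19 of 24. For miR-788-3p the sign of this mean was the opposite of the fitted value.

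The early hours gave the largest difference of the 3 strands by window. From 0 to 7 h miR-246-3p held 5.75 to 24.2 CPM in lin-28(0), with a median of 10.9 CPM, against 3.35 to 11.3 CPM in WT, with a median of 6.37 CPM, and lin-28(0) was the higher one at each of the 8 hours although the ranges overlap. The fitted difference was 0.91 ± 0.34 and did not pass (adjusted p = 0.0394 by edgeR, beside 19.9% of all strands called in this window). With the sampling hour as a block it was 0.95 ± 0.27 and passed (adjusted p = 0.00894 by edgeR). With the lin-28(0) hours 1, 2 and 3 left out, it was 0.89 ± 0.50 (adjusted p = 0.297 by edgeR), with all 5 remaining hours higher in lin-28(0), and without hour 0 it was 0.67 ± 0.37 (adjusted p = 0.153).

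miR-788-3p showed another pattern in those libraries. At each of 1, 2 and 3 h lin-28(0) had the lower level, with a mean log2 difference of -0.75 ± 0.17 (SD), and at 4 to 7 h the mean was 0.36 ± 0.31, with 3 hours higher in lin-28(0) and 30.2 CPM in both genotypes at 5 h. Over 0 to 7 h its fitted difference was -0.39 ± 0.40 (adjusted p = 0.506 by edgeR). miR-788-5p stood at 0.27 ± 0.16 in that window (adjusted p = 0.211 by edgeR).

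In the later windows no member passed either. From 8 to 15 h, where 2.85% of all strands passed, the fitted differences were -0.13 ± 0.38 for miR-788-3p, 0.07 ± 0.16 for miR-788-5p and -0.03 ± 0.36 for miR-246-3p. From 16 to 23 h, where 7.72% passed, they were -0.13 ± 0.38, -0.21 ± 0.16 and -0.39 ± 0.34. In each of these windows 0 of 3 had an unadjusted p under 0.05 by edgeR. Of all 246 strands, 43 did from 8 to 15 h and 72 from 16 to 23 h. DESeq2 and limma called 0 of 3. A joint test of the genotypes over the whole time course was passed by 28% of all strands. It gave adjusted p = 0.0397 for miR-246-3p, 0.298 for miR-788-5p and 0.546 for miR-788-3p by edgeR. An unadjusted p under 0.05 was reached by 1 of the 3, beside 132 of all 246 strands.

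**Figure D5:**
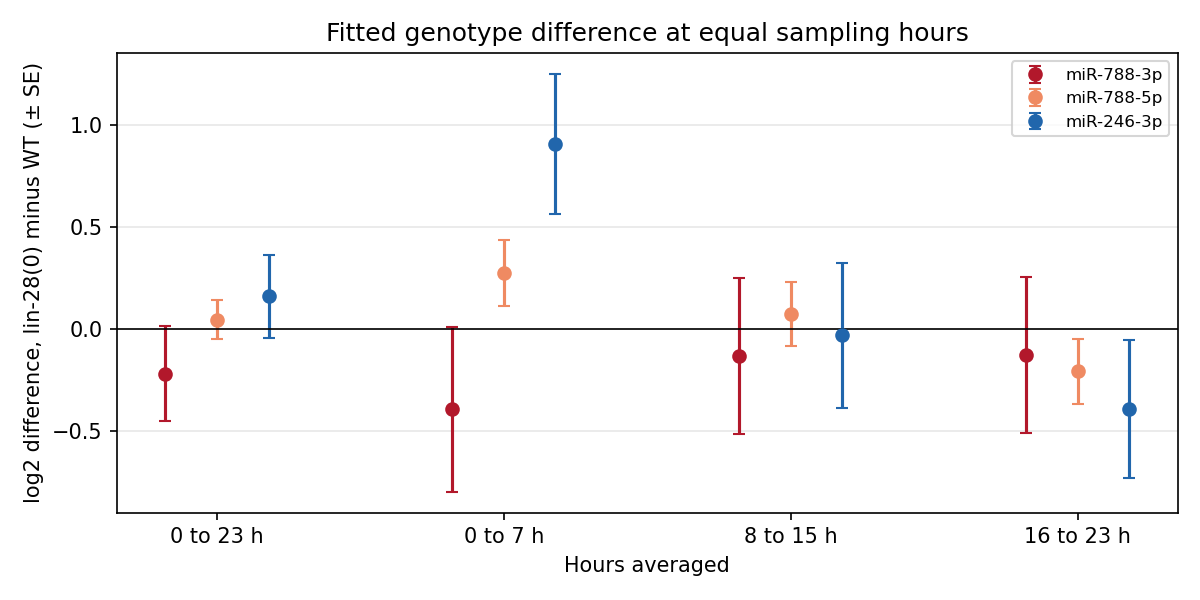
Fitted log2 difference, lin-28(0) minus WT, at equal sampling hours for each strand over all hours and in 3 windows, bars ± SE from the edgeR model. miR-246-3p from 0 to 7 h, at 0.91 ± 0.34, is the value farthest from 0, and none of the 12 values passes an adjusted p of 0.01.

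Single hours nevertheless differed severalfold, in either direction. At 17 h miR-788-3p held 123 CPM in lin-28(0) and 450.5 CPM in WT, a log2 difference of -1.86, whereas at 22 h it held 719 CPM in lin-28(0) and 234 CPM in WT, a difference of 1.62. At 21 h miR-246-3p held 15.6 CPM in lin-28(0) and 98.3 CPM in WT, a difference of -2.58, whereas at 19 h it held 20.1 CPM in lin-28(0) and 6.98 CPM in WT, a difference of 1.40.

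The rhythm itself was therefore compared by the genotype terms of the cosine and sine, jointly, over 5 to 23 h. Of the 246 strands 14.2% passed this test, and 2 of the 3 strands were among them. The difference between the genotypes' fitted waves had an amplitude of 1.25 (log2) for miR-788-3p (adjusted p = 5.5e-04 by edgeR) and 1.16 for miR-246-3p (adjusted p = 0.00169 by edgeR). For miR-788-5p it was 0.45 and did not pass (adjusted p = 0.0712 by edgeR). With a period of 9 h set for both genotypes, the fitted peaks of miR-788-3p were 1.44 h later in lin-28(0) than in WT. The fitted lag was 1.64 h for miR-788-5p and 1.30 h for miR-246-3p. The observed tops of miR-788-3p lay at 11 and 21 h in lin-28(0) and at 10 and 18 h in WT. No single lag thus held for both waves. The peak hours of each genotype took part in the choice of these strands, so the test is not independent of that choice.

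Both calls depended on how the hours were matched. When the lin-28(0) hours were divided by 1.12, the tempo factor that best aligned all 246 strands, the rhythm difference was 0.28 for miR-788-3p (adjusted p = 0.835 by edgeR) and 0.52 for miR-246-3p (adjusted p = 0.574 by edgeR), and 0 of the 246 strands passed, with 31 at an unadjusted p under 0.05. The factor was chosen to make the profiles of these same strands alike, so a smaller rhythm difference after it is partly built in. The matched rhythm test also used no hour past 20 h. The factor that best aligned the single strands was 1.12 for miR-788-3p, 1.12 for miR-788-5p and 1.1 for miR-246-3p, close to that of all strands. On the same matched hours, which end at 20 h, the average difference of miR-246-3p was 0.68 ± 0.15, higher in lin-28(0). It passed (adjusted p = 5.9e-04 by edgeR), as did 55 of the 246 strands, 40 of them higher in lin-28(0). miR-788-3p at 0.11 ± 0.15 and miR-788-5p at 0.20 ± 0.09 did not pass. The highest miR-246-3p libraries lay outside these hours. They were those of 21, 22 and 23 h in WT (98.3, 96.0 and 87.3 CPM) and of 23 h in lin-28(0) (97.7 CPM).

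The strands most like each member were sought by the same detrended correlation over the 19 WT libraries of 5 to 23 h, among 180 strands. miR-788-3p ran most like miR-36-3p and miR-37-3p, guides of the miR-35 family that is abundant in embryos, with r of 0.84 and 0.93 in lin-28(0) and 0.94 and 0.94 in WT, and like miR-48-5p, a let-7 relative that times early larval fates, with r of 0.89 in lin-28(0) and 0.93 in WT. Its most opposite strands were miR-45-5p, with r of -0.52 in lin-28(0) and -0.87 in WT, miR-71-5p, a miRNA that promotes long life, with r of -0.75 in lin-28(0) and -0.87 in WT, and miR-71-3p, with r of -0.75 in lin-28(0) and -0.84 in WT.

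For miR-246-3p the likeness was weaker and less stable between genotypes. Its nearest strands in WT were miR-71-3p, miR-45-5p and miR-228-3p, with r of 0.45, 0.10 and 0.60 in lin-28(0) and 0.81, 0.74 and 0.74 in WT. Its most opposite strands were miR-67-5p, with r of -0.73 in lin-28(0) and -0.86 in WT, then miR-788-3p itself, and miR-37-3p, with r of -0.71 in lin-28(0) and -0.82 in WT. For miR-788-5p the nearest strands were miR-35-3p, miR-244-5p and miR-356b-5p, with r of 0.19, 0.58 and 0.20 in lin-28(0) and 0.71, 0.71 and 0.68 in WT. Its most opposite strands were miR-71-5p, miR-64-3p and miR-34-5p, with r of -0.60, -0.10 and -0.18 in lin-28(0) and -0.71, -0.67 and -0.65 in WT. Among the 6 strands named for miR-788-5p, miR-244-5p and miR-71-5p thus kept an r beyond 0.5 in lin-28(0). All these values share libraries and are given without a test.

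The wider groups to which these strands belong are given for context, with the rhythm counts read beside the 14.2% of all strands that passed. A list of 13 strands held the miRNAs that the study ties to EBAX-1 from other samples and both arms of mir-788, although the study ties its guide, given there as 5p, and not its passenger to EBAX-1. Of these 12 could be tested. On average 5 of the 12 were higher in lin-28(0) and 0 lower, beside 16.3% and 6.5% of all tested strands, with a median log2 difference of 0.30 beside 0.04 for all strands. The 5 were guides of the miR-35 family, miR-35-3p, miR-36-3p, miR-37-3p, miR-39-3p and miR-40-3p, and neither arm of mir-788 was called. miR-35-3p held 2993 to 4043 CPM in the lin-28(0) libraries of 1, 2 and 3 h, against 825 to 2263 CPM in the other early ones. With those 3 left out, a choice made for the lists after their counts were seen, 1 of the 12 was called (miR-39-3p). Of the 241 strands tested then, 34 were called. The median of the list was 0.12, beside 0.016 for all strands. In the rhythm test 8 of the 12 passed, or 7 of 11 without miR-788-3p.

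Of 6 strands linked to life span, all tested, 1 was higher on average and 0 lower, with a median of 0.16. That one was miR-239b-5p at 1.03 ± 0.18 (adjusted p = 2.6e-05 by edgeR), a strand known from stress and life span work, while miR-246-3p was not called. On hours matched by the tempo factor 4 of the 6 were higher, with miR-246-3p, miR-238-3p and miR-239a-5p beside miR-239b-5p. Of all 246 strands 40 were higher on these hours. In the rhythm test 2 of the 6 passed. Of 6 strands that the study discusses for their rhythm, 5 could be tested, and all 5 passed the rhythm test. They were listed for being rhythmic, whereas the test asks whether the wave differs between the genotypes. Of these 5 strands, 1 was higher on average (let-7-3p) and 0 lower, with a median of -0.0026. The median includes lin-4-3p, whose average difference could not be estimated (6.46 with an SE of 13908). Without the lin-28(0) hours 1, 2 and 3, 0 were called on average, beside 34 of all 241 strands. In the fit of all libraries, let-7-3p was also higher at later hours. It was called from 8 to 15 h (8.12, adjusted p = 7.3e-10 by edgeR) and from 16 to 23 h (4.49, adjusted p = 1.8e-06 by edgeR). With the tempo factor or a shift of -2 h, 0 strands of each list passed the rhythm test, as did 0 of all 246.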

How the data were processed

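Raw counts per mature strand were deposited for 48 libraries. Per the study's methods, the authors trimmed reads with QuasR, aligned them with Bowtie (version not given in the sources used here) to ce10 with up to 100 hits per read, and counted sense reads starting within 3 bases of a miRBase 5′ end. The methods name 3 sequencing reactions with 2 library kits, and which of them entered the counts is not stated. The deposited log2 table equals, within 0.0005, log2 of counts brought to the average library total with 8 added, and was used only to learn that transformation. No 2 libraries held identical counts.

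Genotypes were taken from the strain label. Tests used edgeR 4.0.16 (glmQLFit, glmQLFTest) in R 4.3.3 on 246 strands that averaged 10 counts or more, with TMM factors from all counted strands. The model held a B-spline of the hour with 6 components and its interaction with genotype, or, for rhythm, cosine and sine of 9 h with a trend over 5 to 23 h. P-values were adjusted by Benjamini-Hochberg over all tested strands, with a threshold of 0.01. The scripts were tested on simulated counts. DESeq2 1.42.0 and limma 3.58.1 were alternatives, with other scalings, filters, periods and hour matchings. Cosine fits, correlations and ratios used log2(CPM + 1) or counts in Python 3.11. Named strands are the 3 members, miR-246-5p, the 3 most alike and 3 most opposite strands of each member in WT, and lists of EBAX-1, life span and rhythm strands. The members and lists were chosen with earlier results of these data known. Sequences and positions were not used here. The annotation is of another build than ce10 and served for names and neighbours only.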

Additional observations from a re-analysis of the deposited data

Results flagged for a closer look

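The rhythm of 2 strands differed between the genotypes by the interaction of genotype with the cosine and sine of a 9 h period (edgeR). The difference between the fitted waves of lin-28(0) and WT had an amplitude of 1.25 on the log2 scale for miR-788-3p and of 1.16 for miR-246-3p. The timing of these strands took part in their choice, so the test is not independent of it. On hours matched by the tempo factor the values were 0.28 (adjusted p = 0.835 by edgeR) and 0.52 (adjusted p = 0.574 by edgeR). That factor was chosen to align all tested strands, these 2 among them, so lower values are partly built in. Groups of 24 hourly libraries were too large for the check for single outlying samples.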

How the results depend on the processing

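Alternatives to scaling, filter, tool, libraries and hours left every average and window difference of the 3 strands below the threshold, apart from those named here. When lin-28(0) time was compressed by the tempo factor, the average of miR-246-3p was 0.68, and the rhythm differences of miR-788-3p and miR-246-3p were 0.28 and 0.52, neither past the threshold. With the hours shifted by -2 h they were 0.46 and 0.84, with a period of 10 h 1.24 and 1.02, and with a period of 8 h miR-246-3p stood at 1.05, none past the threshold. With the hours shifted by 2 h, the rhythm difference of miR-788-5p was 0.81 and passed, and the test of any difference passed for miR-788-3p (adjusted p = 0.00476 by edgeR) and miR-246-3p (adjusted p = 5.2e-06). miR-246-3p from 0 to 7 h passed with the sampling hour as a replicate block (0.95) and with a shift of 2 h (1.19, over 2 to 7 h). Fits with moved hours used only the hours that both genotypes then covered. These were 2 to 23 h with the shift of 2 h, 0 to 21 h with the shift of -2 h and 0 to 20 h with the tempo factor. Averages and windows of these fits are cut to the same hours. The block changed no other call of the 3 strands, and its rhythm differences were 1.23 for miR-788-3p, 0.45 for miR-788-5p and 1.12 for miR-246-3p.

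Signs turned without a call as follows. The average of miR-788-3p was 0.063 with limma, 0.030 with the hour block, 0.26 with the shift of -2 h and 0.11 with the tempo factor. With the shift of 2 h the averages of miR-788-5p and miR-246-3p were -0.13 and -0.053. From 0 to 7 h, the shift of -2 h gave 0.11 for miR-788-3p and -0.028 for miR-788-5p. From 8 to 15 h, miR-788-3p was 0.30 with limma, 0.34 with the block, 0.30 with the shift of -2 h and 0.27 with the tempo factor. miR-788-5p was -0.24 with the shift of 2 h. miR-246-3p was 0.23 with limma, 0.21 with the block, 0.042 without hour 0, 0.79 with the shift of -2 h and 0.60 with the tempo factor. From 16 to 23 h, miR-788-3p was 0.18 with limma, 0.078 with the block, 0.39 with the shift of -2 h and 0.16 with the tempo factor. miR-788-5p was 0.11 and 0.078, and miR-246-3p 0.46 and 0.78, with the shift of -2 h and the tempo factor. The cause was not tested.

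Of all strands, 56 were called on average (40 higher and 16 lower in lin-28(0)), 34 when lin-28(0) hours 1 to 3 were left out and 91 with the shift of 2 h. Scaling by DESeq2 size factors gave 33 higher and 21 lower. From 0 to 7 h, 49 were called (34 higher and 15 lower, against 30 and 22 with DESeq2 size factors), 7 without those hours, 32 with the shift of -2 h and 85 with the shift of 2 h. From 8 to 15 h, 7 were called, and 17 and 37 with these shifts. From 16 to 23 h, 19 were called (8 higher and 11 lower, against 17 and 8 with total counts), 29 without hour 0, 44 with the shift of 2 h and 10 with the tempo factor, and total counts moved the median of all strands to 0.14, against 0.04 with TMM. Any difference was called for 69 strands, 34 without those hours and 178 with the shift of 2 h. The rhythm difference was called for 35 strands, 0 with the shift of -2 h (20 at an unadjusted p under 0.05), 59 with the shift of 2 h, 0 with the tempo factor, 15 with a period of 8 h and 6 with a period of 10 h.

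With a period of 8 h the amplitudes in lin-28(0) were 0.92 for miR-788-3p and 0.72 for miR-246-3p. The order of the fitted peaks from that of miR-788-3p on, then miR-788-5p and miR-246-3p, held in both genotypes with periods of 8, 9 and 10 h and with hours 7 to 23. Over all 24 hours with no trend removed, the 3 nearest strands included 1 of those named for miR-788-3p and 0 for each of the others, and the 3 most opposite included 2 for miR-788-3p, 0 for miR-788-5p and 1 for miR-246-3p. With Spearman's rho the 3 nearest included 3 of those named for miR-788-3p, 3 for miR-788-5p and 1 for miR-246-3p, and the most opposite 2, 0 and 1. The rhythm test was not run without hour 0 or without hours 1 to 3, which it does not use. Depth limits miR-246-3p most, since its lowest WT library held 10 counts, and the single culture per genotype limits every comparison.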
